A study of Homo sapiens with 12 samples.

Results

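Of the 60666 genes listed for Huh7 cells, 9 encode the secreted or membrane-bound angiogenic factors described here: the vascular endothelial growth factor (VEGF) family ligands VEGFA, VEGFB and PGF, the platelet-derived growth factor PDGFB, the ephrin-A ligands EFNA1 and EFNA3, the angiopoietin-like proteins ANGPTL4 and ANGPTL8, and the ribonuclease ANG. They were chosen by name and matched to the count tables through their Ensembl identifiers, and all 9 were found. Huh7 is a long-established line of human hepatocellular carcinoma cells. The cells received 25 µM Molidustat or its solvent DMSO alone, for 24 h or 48 h, which gives 4 groups of 3 libraries each. All of them were grown in the same medium, and no group carries a genetic change made for the study. RNA was sequenced from the 3′ end of polyadenylated transcripts, so that the counts do not separate splice forms such as those of VEGFA. The paper calls its replicates biological, whereas the study's record mentions extractions made in triplicate. If the libraries of a group came from the same culture, the p-values below cover technical spread only.

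Molidustat blocks the prolyl hydroxylases that, when oxygen is present, mark the alpha subunits of the hypoxia-inducible factors (HIF) for destruction. Stabilised HIF binds short hypoxia response elements in DNA and raises the transcription of genes for glycolysis, iron handling and blood vessel growth, among which VEGFA is the textbook case. VEGFA, VEGFB and PGF bind receptor tyrosine kinases on endothelial cells. PDGFB recruits pericytes, ephrin-A ligands signal to Eph receptors on neighbouring cells, and ANGPTL4 and ANGPTL8 are best known in the liver and adipose tissue as inhibitors of lipoprotein lipase. ANG is a secreted ribonuclease first isolated from tumour cell medium as an angiogenic protein.

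Library depth ran from 1499273 to 9179389 counts on genes. The smallest library, DMSO 48 h replicate 2, stood apart: 50.4% of its reads lay outside annotated features, where the other 11 libraries had 17.1 to 25.6%, and its scaling factor was 0.629 where theirs were 1.01 to 1.08. It was kept, and values without it are given beside the results it moves most. Levels are in CPM, counts scaled to a library of 1000000, after scaling by edgeR's TMM factors. A gene is called when the Benjamini-Hochberg adjusted p of edgeR's quasi-likelihood test, over 14274 genes, is under 0.05 and its log2 fold change lies beyond 1. For 1 gene on its own, 3 libraries a side are too few for an exact two-sided permutation p under 0.10. The hepatocyte markers matched the label. All 8 were detected, AFP at a mean of 7161 CPM, and their summed level was 12836 CPM with DMSO and 19113 CPM with Molidustat at 24 h, and 13698 and 25308 CPM at 48 h. The 48 h DMSO mean includes DMSO 48 h replicate 2, whose sum of 8721 CPM was the lowest of the 12 libraries. Of 6 endothelial markers, VWF, CLDN5 and EMCN had no count in any library, the most abundant was PECAM1 at a mean of 1.72 CPM, and the summed level lay between 0 and 6.45 CPM. Among 6 fibroblast and stellate markers, ACTA2 was at 0 and LUM, the most abundant, averaged 3.10 CPM. Their sum went from 3.65 CPM with DMSO to 3.58 CPM with Molidustat at 24 h, and from 5.31 to 16.4 CPM at 48 h. Of 5 leukocyte markers, CD3E and MS4A1 were at 0, and over all libraries PTPRC had 7 counts and CD68 had 156. The sum was nearly all LYZ, which averaged 130 CPM. That sum was 193 CPM with DMSO and 158 CPM with Molidustat at 24 h, and 125 and 56.9 CPM at 48 h. The part of these shifts in the results below was not tested. In bulk RNA, fewer cells of a type and less RNA per cell cannot be told apart.

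The clearest responses were those of EFNA3 and EFNA1, both higher in every Molidustat library than in every DMSO library of the same time point, as was VEGFA. Of all genes, 7.26% were higher in this way at 24 h, 9.96% at 48 h and 2.2% at both times. With the 24 h and 48 h responses averaged, EFNA3 was 8.57-fold and EFNA1 2.63-fold higher with Molidustat and both were called. VEGFA was 1.91-fold higher and stayed just under the fold threshold. This average was chosen after the responses at each time point had been seen, so its calls are not those of a planned test. At either time point alone edgeR called none of the 9 factors. ANGPTL8 had 1 count in all 12 libraries together, under the limit of 3 counts that a count of 0 allows, and was not detectable at this depth. PGF was the only tested factor whose level at 24 h was lower in each of the 3 Molidustat libraries. The share of all genes separated downward was not counted.

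The promoters of EFNA3 and EFNA1 are shown because these factors were called, and that of ANGPTL4 because its match upstream of the start has the ACGTG form of the HIF core motif. RefSeq promoter windows (GRCh38.p14, 250 bases before to 50 after the gene start) were found for 7 of the 9 genes, in 10 windows. The 250 bases upstream of the start are printed 5′ to 3′ on the plus strand, and the capitals mark ACGTG or GCGTG, the core of hypoxia response elements, read on either strand (as CACGT or CACGC on the strand shown).
EFNA3, chr1:155078587-155078836: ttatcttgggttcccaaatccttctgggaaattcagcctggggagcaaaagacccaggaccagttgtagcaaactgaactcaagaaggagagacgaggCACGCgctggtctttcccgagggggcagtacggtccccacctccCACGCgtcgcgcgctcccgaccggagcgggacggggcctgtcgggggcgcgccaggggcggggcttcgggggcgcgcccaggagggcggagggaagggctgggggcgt
EFNA1, chr1:155127626-155127875: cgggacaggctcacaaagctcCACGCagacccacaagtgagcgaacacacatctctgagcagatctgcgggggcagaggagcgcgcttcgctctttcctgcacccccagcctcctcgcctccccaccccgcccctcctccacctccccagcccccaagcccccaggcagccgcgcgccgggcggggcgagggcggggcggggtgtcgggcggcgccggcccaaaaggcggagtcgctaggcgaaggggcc
ANGPTL4, chr19:8363905-8364154: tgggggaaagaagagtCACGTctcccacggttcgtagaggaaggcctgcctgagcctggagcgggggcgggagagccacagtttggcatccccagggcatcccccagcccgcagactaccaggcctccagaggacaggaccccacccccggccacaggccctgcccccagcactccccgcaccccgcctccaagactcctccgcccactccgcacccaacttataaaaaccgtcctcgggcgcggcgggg

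The EFNA3 window holds 3 cores, beginning 152, 108 and 4 bases before the gene start, the last of which runs into the transcribed sequence and is not in capitals. EFNA1 and ANGPTL4 hold 1 each, 229 and 234 bases before it. In GENCODE release 44 the EFNA3 stretch lies in an intron of the EFNA4-EFNA3 readthrough gene, the ANGPTL4 stretch in an intron of a longer ANGPTL4 transcript, and the EFNA1 stretch between genes. ACGTG or GCGTG occurred in 9 of the members' 10 windows and in 48.4% of all 35116 windows of this length, and 3 or more matches in 1 of 10 and in 10.1%. With ACGTG alone the members' count was 2 of 10, against 21.4% of all windows. A match is a description of the letters and not of binding, which was not measured here. VEGFA and PDGFB are named without a sequence.

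EFNA3 (chr1:155078837-155087538, plus strand) encodes a membrane-anchored ligand of EphA receptors. At 24 h its level was 2.30, 0 and 1.24 CPM in DMSO replicates 1 to 3 and 18.6, 4.86 and 7.50 CPM in Molidustat replicates 1 to 3. At 48 h the DMSO libraries had 1.49, 1.06 and 2.89 CPM and the Molidustat libraries 15.7, 15.9 and 24.2 CPM. The groups did not overlap at either time, the lowest Molidustat library at 24 h being replicate 2. These levels rest on few reads, 16 counts in the 3 DMSO libraries at 24 h and 40 at 48 h against 131 and 236 with Molidustat. EFNA3 passed the filter on low counts through its Molidustat libraries, its DMSO levels being too low. The log2 fold change was 2.99 (SE 0.82) at 24 h and 3.21 (SE 0.81) at 48 h, with edgeR adjusted p of 0.298 and 0.157. Averaged over both times it was 3.10 (SE 0.58, 95% confidence interval 1.87 to 4.32) with an adjusted p of 0.0127. Leaving out 1 library at a time kept that value between 2.73 and 3.48 and the call in 11 of 12 fits. Without Molidustat 48 h replicate 3, the library with the highest level, the adjusted p was 0.0562. Exons of EFNA3 share 853 bases (43.9% of its exonic bases) with the EFNA4-EFNA3 readthrough gene on the same strand, which had 15 counts in all libraries, and reads in the shared part may have been left uncounted.

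EFNA1 (chr1:155127876-155134899), a further EphA ligand that lies in the same ephrin gene cluster and was first described as a cytokine-induced endothelial transcript, was measured more deeply. DMSO replicates 1 to 3 had 53.7, 21.2 and 33.9 CPM at 24 h, and Molidustat replicates had 111, 59.1 and 66.1 CPM. At 48 h the values were 70.2, 37.3 and 40.7 CPM with DMSO and 141, 140.3 and 199 CPM with Molidustat. Every Molidustat library exceeded every DMSO library of its time point, by little at 24 h (59.1 against 53.7 CPM) and by more at 48 h (140.3 against 70.2 CPM). The group mean went from 36.3 ± 16.4 CPM (SD, n = 3) to 78.8 ± 28.2 CPM at 24 h and from 49.4 ± 18.1 to 160.0 ± 33.4 CPM at 48 h. EFNA1 had a log2 fold change of 1.11 (SE 0.39, edgeR adjusted p 0.658) at 24 h and 1.68 (SE 0.40, adjusted p 0.129) at 48 h. The average of both was 1.39 (SE 0.28, 95% confidence interval 0.80 to 1.99, adjusted p 0.0206). That call held in 7 of 12 fits with a library left out, and the log2 fold change stayed between 1.23 and 1.59. It was lost without DMSO 24 h replicate 2 (adjusted p 0.0791), DMSO 24 h replicate 3 (0.0853), Molidustat 24 h replicate 1 (0.0755), DMSO 48 h replicate 3 (0.0566) or Molidustat 48 h replicate 3 (0.0851).

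VEGFA (chr6:43770184-43786487, plus strand), the main endothelial growth factor, had the smallest standard error of the 8 tested factors at each time point. DMSO libraries held 39.5, 34.7 and 35.1 CPM at 24 h and 35.0, 38.3 and 43.8 CPM at 48 h. Molidustat libraries held 64.2, 74.7 and 80.0 CPM at 24 h and 83.1, 52.8 and 77.2 CPM at 48 h. The 6 DMSO libraries, DMSO 48 h replicate 2 among them, lay within 34.7 to 43.8 CPM, and all 6 Molidustat libraries were above them. The share of all genes separated 6 against 6 was not counted. Its mean was 36.4 ± 2.67 CPM with DMSO and 72.9 ± 8.05 CPM with Molidustat at 24 h (SD, n = 3), and 39.0 ± 4.46 and 71.0 ± 16.1 CPM at 48 h. The log2 fold change was 1.0 (SE 0.29, edgeR adjusted p 0.348) at 24 h and 0.86 (SE 0.29, adjusted p 0.230) at 48 h. Averaged over both times it was 0.93 (SE 0.21, 95% confidence interval 0.50 to 1.37) with an adjusted p of 0.0376, short of the fold threshold of 1. The adjusted p ranged from 0.0169 to 0.154 when 1 library was left out. It was called in the fit without Molidustat 48 h replicate 2, at a log2 fold change of 1.01 (adjusted p 0.0484).

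**Figure D1:**
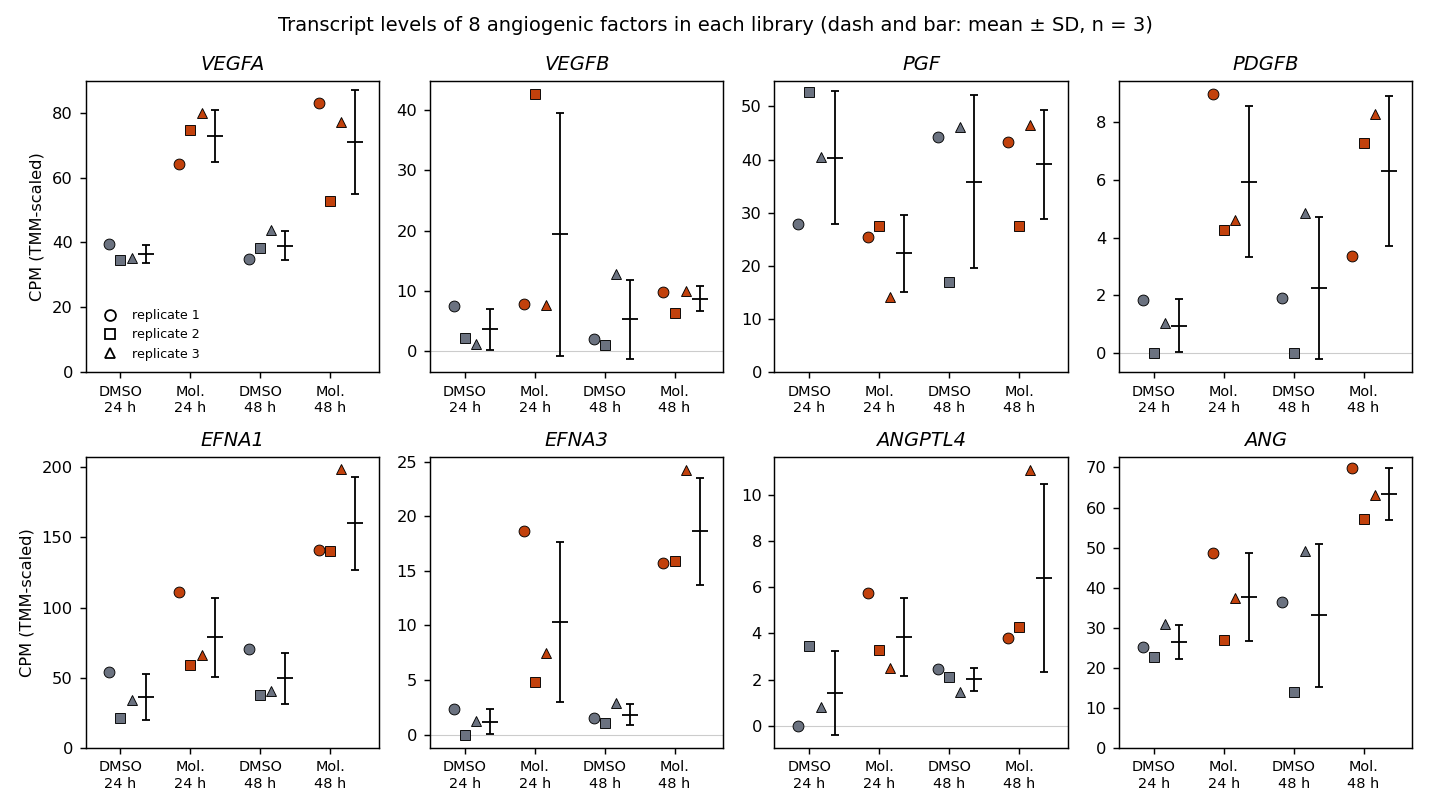
Level of 8 factors in each library in CPM on linear axes (grey, DMSO; orange, Molidustat; circle, square and triangle, replicates 1, 2 and 3), with the group mean and SD beside the points. VEGFA in the 6 Molidustat libraries (52.8 to 83.1 CPM) lay above all 6 DMSO libraries (34.7 to 43.8 CPM), a separation whose share over all genes was not counted. The single VEGFB point at 42.6 CPM is Molidustat 24 h replicate 2.

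VEGFB and PGF were not called. VEGFB (chr11:64234584-64239264), a ligand of VEGF receptor 1 linked to fatty acid uptake, was at 7.58, 2.31 and 1.24 CPM in the DMSO libraries at 24 h and at 7.89, 42.6 and 7.69 CPM with Molidustat. The 2 other Molidustat libraries barely exceeded DMSO replicate 1. At 48 h the values overlapped, with 2.03, 1.06 and 12.8 CPM in DMSO and 9.89, 6.43 and 9.96 CPM in Molidustat. Its log2 fold change of 2.38 (SE 0.91, edgeR adjusted p 0.804) at 24 h became 1.04 without Molidustat replicate 2. EFNA4 was also at its highest in that library, at 55.8 CPM. That library's share of unannotated reads, 25.6%, was close to the 25.2% of DMSO 24 h replicate 3. Why VEGFB was high in that library was not tested. At 48 h the log2 fold change was 0.58 (SE 0.88, adjusted p 0.841). With each library left out in turn that value ran from 0.13 to 2.31, the highest without DMSO 48 h replicate 3 (12.8 CPM), and it was 0.22 without DMSO 48 h replicate 2.

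PGF (chr14:74941834-74955626, minus strand), the placental ligand of VEGF receptor 1, was at 27.8, 52.8 and 40.5 CPM in DMSO and at 25.5, 27.6 and 14.0 CPM in Molidustat at 24 h. The Molidustat libraries were all lower, the closest values being 27.6 and 27.8 CPM. At 48 h they overlapped, at 44.3, 17.0 and 46.2 CPM in DMSO and 43.4, 27.5 and 46.4 CPM in Molidustat. The log2 fold change was -0.85 (SE 0.42, edgeR adjusted p 0.968) at 24 h and 0.09 (SE 0.42, adjusted p 0.959) at 48 h, where it was -0.22 without DMSO 48 h replicate 2. Its 95% confidence interval over both times, -1.01 to 0.25, leaves out an average increase as large as the one measured for VEGFA. At 48 h alone the interval was -0.80 to 0.98, which includes the VEGFA value of 0.86 at that time.

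PDGFB (chr22:39223359-39244982, minus strand), the ligand that draws pericytes to new vessels, had few counts in DMSO at 24 h. At 48 h the DMSO counts were 14, 0 and 47. Its counts were 8, 0 and 5 in DMSO and 25, 35 and 24 in Molidustat at 24 h, or 1.84, 0 and 1.03 CPM against 8.96, 4.25 and 4.61 CPM. At 48 h the levels were 1.898, 0 and 4.86 CPM in DMSO and 3.37, 7.29 and 8.27 CPM in Molidustat, and the groups overlapped through DMSO replicate 3. The log2 fold change was 2.51 (SE 1.06, edgeR adjusted p 0.872) at 24 h and 1.28 (SE 0.99, adjusted p 0.646) at 48 h. The latter was 0.88 without DMSO 48 h replicate 2 and 2.29 without DMSO 48 h replicate 3, the ends of its range over all libraries left out.

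ANGPTL4 (chr19:8363289-8374370, plus strand), an inhibitor of lipoprotein lipase that is induced by fasting and by hypoxia, had at most 59 counts in any library. Its level was 0, 3.47 and 0.826 CPM in DMSO and 5.74, 3.28 and 2.50 CPM in Molidustat at 24 h, and 2.44, 2.13 and 1.45 against 3.82, 4.29 and 11.1 CPM at 48 h. Only the 48 h groups were apart. The log2 fold change was 1.48 (SE 1.09) and 1.69 (SE 1.07), with edgeR adjusted p of 0.999 and 0.545. With a library left out the 24 h value ran from 0.86 to 3.09 (without DMSO 24 h replicates 1 and 2) and the 48 h value was lowest, 1.01, without Molidustat 48 h replicate 3. The 95% confidence interval over both times, -0.03 to 3.20, spans a range from no change to an increase like that of EFNA3. ANGPTL8 (chr19:11237502-11241943), an inhibitor of the same lipase that is made by hepatocytes after feeding, had its only count in DMSO 48 h replicate 3.

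ANG (chr14:20684177-20698971, plus strand), or angiogenin, was at 25.3, 22.7 and 31.0 CPM in DMSO and 48.8, 26.8 and 37.3 CPM in Molidustat at 24 h, where the groups overlapped. At 48 h the DMSO libraries had 36.5, 13.8 and 49.1 CPM and the Molidustat libraries 69.9, 57.1 and 63.1 CPM, with no overlap. Its log2 fold change was 0.51 (SE 0.39, edgeR adjusted p 0.999) and 0.89 (SE 0.39, adjusted p 0.342), and the 48 h value was 0.55 without DMSO 48 h replicate 2, the lowest of the DMSO libraries. ANG shares 292 exonic bases (20.3%) with RNASE4, a further secreted ribonuclease transcribed from the same locus. On the same strand it also shares 276 (19.2%) with ENSG00000259171, a protein-coding gene with 2152 counts in all libraries. Reads in these parts are uncertain. RNASE4 went from 27.6 ± 2.88 to 34.6 ± 8.74 CPM at 24 h and from 39.0 ± 25.7 to 63.5 ± 11.6 CPM at 48 h (SD, n = 3), with log2 fold changes of 0.32 (SE 0.46) and 0.65 (SE 0.45) and edgeR adjusted p of 0.999 and 0.593, the 48 h value being 0.23 without DMSO 48 h replicate 2.

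**Figure D2:**
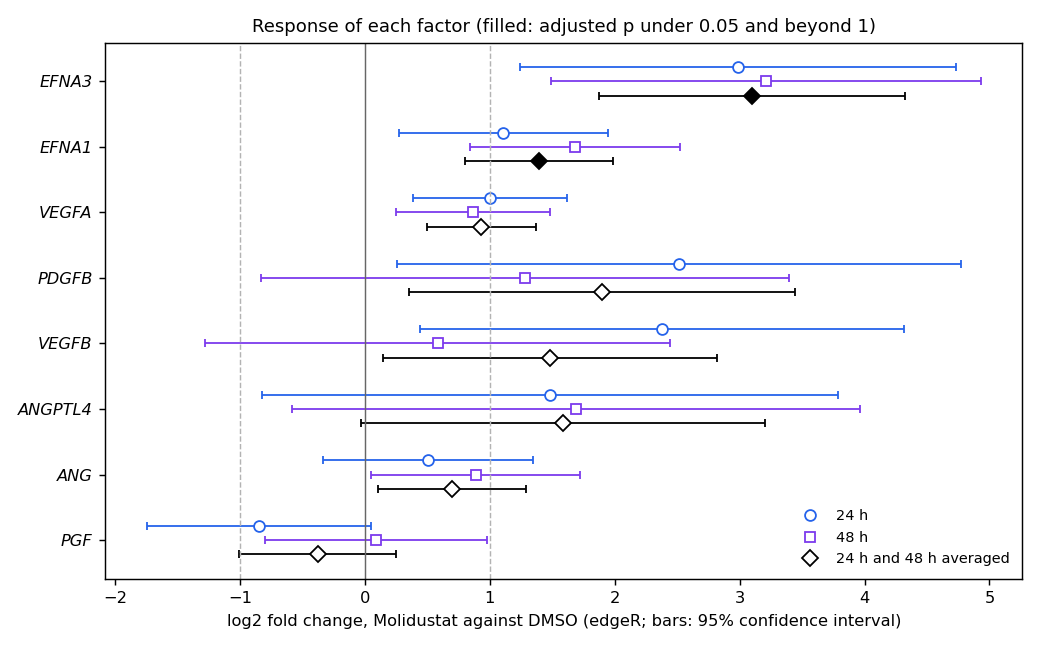
Log2 fold change of Molidustat against DMSO for each of the 8 tested factors at 24 h (blue circles), at 48 h (purple squares) and averaged over both (black diamonds), with 95% confidence intervals from edgeR; dashed lines mark a log2 fold change of 1 in either direction. Filled symbols are called, which holds for the averages of EFNA3 (3.10) and EFNA1 (1.39) alone.

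Counted together, 8 of the 9 factors passed the filter on low counts. EFNA3, PDGFB and ANGPTL4 passed it through their Molidustat libraries, their DMSO levels being too low. The tallies and medians of the 8, here and for the average, therefore describe these factors and test nothing about them as a group. EdgeR called 0 of these 8 at 24 h and 0 at 48 h, where it called 0.231% and 0.21% of all genes higher. At an unadjusted p under 0.05, 5 of 8 were higher at 24 h (VEGFA, VEGFB, EFNA1, EFNA3 and PDGFB) against 3.73% of all genes, and 4 of 8 at 48 h (VEGFA, EFNA1, EFNA3 and ANG) against 4.53%. Every Molidustat library exceeded every DMSO library of its time in 5 of 8 at 24 h and in 5 of 8 at 48 h, a separation seen in 7.26% and 9.96% of all genes, and at both times in 3 of 8 (VEGFA, EFNA1 and EFNA3) against 2.2%. DESeq2 called EFNA3 and VEGFA at 24 h (adjusted p 0.0160 and 0.0363), when it called 0.932% of genes higher, and EFNA1 and EFNA3 at 48 h (0.00647 and 0.00350), when it called 1.22%. Limma-voom with sample quality weights called 0 of 8 at 24 h (0.448% of genes higher) and EFNA1 and EFNA3 at 48 h (1.71%). The median log2 fold change of the 8 was 1.30 at 24 h and 1.08 at 48 h, with 7 of 8 and 8 of 8 above 0, beside medians of 0.02 and 0.01 over all 14274 genes, of which 51.5% and 50.4% were above 0.

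The averaged comparison was chosen after the responses at each time point had been seen. It called 2 of 8 factors higher in edgeR against 0.96% of all genes, and 6 of 8 were higher at an unadjusted p under 0.05 against 5.79%. EFNA3 and EFNA1 were also called by DESeq2 (1.79% of genes higher) and by limma-voom with quality weights (1.95%). VEGFA ranked 132nd, EFNA1 98th and EFNA3 76th of 14274 genes by edgeR p.

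The responses at 24 h and 48 h were then compared with each other. The difference (48 h minus 24 h, log2) ran from -1.80 (SE 1.25) for VEGFB to 0.94 (SE 0.59) for PGF. With a library left out the VEGFB value ran from -2.93 to -0.059, the latter without DMSO 48 h replicate 3, and that of PGF from 0.61 to 1.15. For VEGFA it was -0.14 (95% confidence interval -1.0 to 0.73), for EFNA1 0.57 (-0.59 to 1.74) and for EFNA3 0.22 (-2.24 to 2.68), so that even a large difference between the times could have gone unseen for EFNA3. EdgeR called 0 of the 8 factors and 0.0% of all genes, the smallest adjusted p among the factors being 0.831, and DESeq2 called 0 of 8 and 0.056% of all genes. At an unadjusted p under 0.05 there were 0 of 8 factors and 6.78% of all genes.

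The factors were also compared between the times within each treatment. Between 24 h and 48 h of DMSO the log2 fold changes ran from -0.13 (SE 0.42, PGF) to 1.33 (SE 1.04, PDGFB), and without DMSO 48 h replicate 2 these were 0.20 for PGF and 1.74 for PDGFB. Over all libraries left out in turn, PGF ran from -0.36 to 0.20 and PDGFB from 0.30 to 2.09. EdgeR called 0 of 8 factors and 0.00701% of all genes in DMSO, DESeq2 called 0 of 8 and 0.322%, and an unadjusted p under 0.05 was found for 0 of 8 and 8.14%. In Molidustat, edgeR called 0 of 8 and 0.0% of all genes and DESeq2 0 of 8 and 0.0841%. An unadjusted p under 0.05 was found there for 1 of 8, EFNA1, and for 4.58% of all genes, with a log2 fold change of 1.03 (SE 0.39) from 24 h to 48 h for EFNA1.

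To place the size of these responses, 10 genes known as HIF targets served as a scale. Of these, 9 could be tested, and edgeR called 6 higher at 24 h (BNIP3, PDK1, SLC2A1, PGK1, LDHA and P4HA1) and 2 at 48 h (BNIP3 and PGK1). Their median log2 fold change was 2.48 at 24 h and 1.65 at 48 h. The largest was that of PDK1, a kinase that restrains pyruvate entry into mitochondria, at 3.60 (SE 0.68) at 24 h, and at 48 h that of BNIP3, a mitophagy receptor, at 2.68 (SE 0.34). The smallest was that of EGLN3, itself a HIF prolyl hydroxylase, at 1.05 and 0.63. Without DMSO 48 h replicate 2 the 48 h value of EGLN3 was 1.71 and the smallest was that of EGLN1, at 1.02. EFNA3 stood at 2.99 and 3.21 and VEGFA at 1.0 and 0.86. The 24 h value of EFNA3 ran from 2.27 without Molidustat 24 h replicate 1 to 3.77 without DMSO 24 h replicate 1, on either side of that median, and the distances to it were not tested.

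Among all tested genes, those most like VEGFA across the 12 libraries included FN1, which encodes the matrix protein fibronectin (rank 1), and PNRC1, a nuclear receptor coactivator (rank 3). After each gene's mean was removed, they differed from VEGFA by a root mean square of 0.180 and 0.225 in log2 CPM, where the median gene differed by 0.843. For FN1 the 24 h response was 1.03 and the 48 h response 0.94 (log2). Without DMSO 48 h replicate 2, FN1 was again the closest (0.141), ING4 took rank 2 and PNRC1 rank 5.

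**Figure D3:**
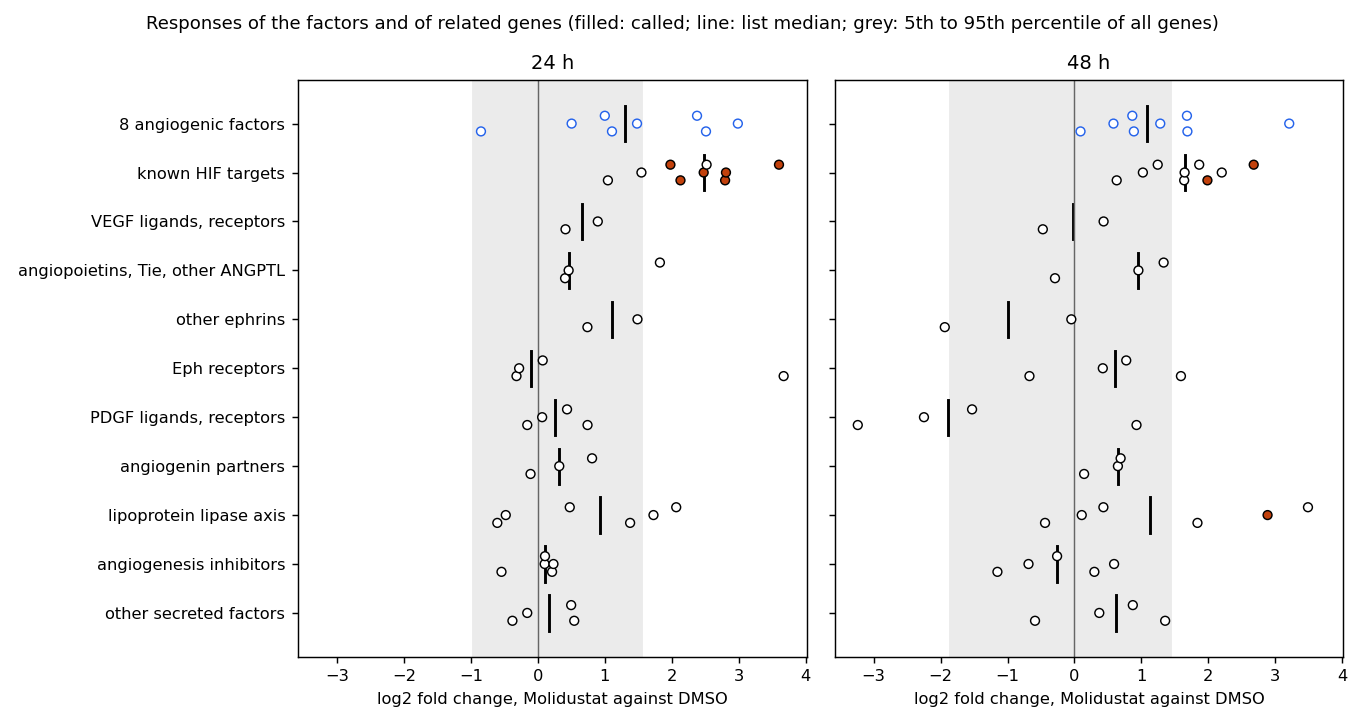
Log2 fold change of Molidustat against DMSO at 24 h (left) and 48 h (right) for the 8 factors (blue outline), known HIF targets and 9 lists of related genes, each circle a tested gene, filled where called. Vertical lines are list medians and the grey band spans the 5th to 95th percentile of all genes; EFNA3 (2.99 and 3.21) lies outside the band at both times.

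The receptors and sister ligands of these factors were followed in 9 lists of 68 genes, of which 33 could be tested. EdgeR called 0 of 33 at 24 h and 1 at 48 h, APOC3, and at an unadjusted p under 0.05 there were 4 higher and 0 lower at 24 h and 3 higher and 4 lower at 48 h. The shares of all genes at that p were 3.73% higher and 1.52% lower at 24 h and 4.53% and 8.81% at 48 h. The median log2 fold change of the 33 was 0.41 and 0.37. With a library left out, the value turned sign or moved by over 1.5 times in 29 of the 33 at 24 h and 28 at 48 h, and in 3 and 5 of the 8 factors. Of the VEGF receptors, FLT1 and FLT4 had no count and KDR was too low to test, and of the co-receptors only NRP1 was abundant, at 130 ± 7.38 CPM with DMSO and 173 ± 20.9 CPM with Molidustat at 24 h (SD, n = 3). NRP2 had log2 fold changes of 0.90 (SE 1.02) and 0.44 (SE 1.12).

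The lipoprotein lipase list, to which ANGPTL4 and ANGPTL8 belong by function, held the called gene. APOC3 (chr11:116829706-116833072), an apolipoprotein that inhibits the lipase, was at 11.8, 8.52 and 13.8 CPM in DMSO and 47.9, 122 and 91.9 CPM in Molidustat at 48 h. The groups did not overlap, nor did they at 24 h, where the means were 17.0 ± 6.76 and 44.4 ± 17.7 CPM (SD, n = 3). APOC3 had a log2 fold change of 1.38 (SE 0.44, edgeR adjusted p 0.473) at 24 h and 2.89 (SE 0.47, adjusted p 0.0121) at 48 h. The 48 h call was lost without Molidustat 48 h replicate 2 (2.56, adjusted p 0.0793) or replicate 3 (2.84, adjusted p 0.0711) and with only the 48 h libraries in the fit (2.88, adjusted p 0.103), and APOC3 was not tested where at least 10 counts were required in every library. APOC2, the activator of the same lipase, had a log2 fold change of 1.84 (SE 0.49, adjusted p 0.186) at 48 h, which ran from 1.21 without Molidustat 48 h replicate 2 to 2.13 without DMSO 48 h replicate 3. APOA5 had 3.49 (SE 1.65, adjusted p 0.376) from levels of at most 1.03 CPM in DMSO. That value rests on the 10 counts of DMSO 48 h replicate 3, without which the DMSO libraries at 48 h have no count, and was 2.56 without Molidustat 48 h replicate 3. Of the 6 genes of this list that could be tested, edgeR called 1 higher and 0 lower at 48 h.

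Among the angiopoietins and other angiopoietin-like proteins, ANGPTL2 (1.82, SE 1.19 at 24 h and 0.96, SE 1.20 at 48 h, where it ran from 0.45 without DMSO 48 h replicate 3 to 2.95 without DMSO 48 h replicate 1) and ANGPT1 (0.46, SE 0.47 and -0.29, SE 0.47), a Tie2 ligand, were not called.

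Of the ephrins beside EFNA1 and EFNA3, EFNA2 and EFNA4 could be tested and EFNA5 and the ephrin-B genes could not. EFNA4 (chr1:155063737-155069553), the neighbour of EFNA3, was at 14.0, 7.32 and 10.3 CPM in DMSO and 21.5, 55.8 and 11.7 CPM in Molidustat at 24 h, and at 29.4, 39.4 and 23.6 against 38.9, 4.29 and 43.8 CPM at 48 h. Its groups overlapped at both times, and the log2 fold changes were 1.49 (SE 0.67, edgeR adjusted p 0.912) and -0.05 (SE 0.66, adjusted p 0.990). The 24 h value fell to 0.63 without Molidustat 24 h replicate 2. Among Eph receptors, 4 of 14 were tested and edgeR called 0 at either time. EPHA1, a receptor for EFNA1, was at 1.61, 0 and 0 CPM in DMSO and 14.3, 0.971 and 7.69 CPM in Molidustat at 24 h, a log2 fold change of 3.67 (SE 1.31, adjusted p 0.677), and one of 1.59 (SE 1.21, adjusted p 0.637) at 48 h. The 24 h value rests on the 7 counts of DMSO replicate 1, without which the DMSO libraries have no count, and was 2.87 without Molidustat 24 h replicate 1. EPHB4 had -0.28 (SE 0.45) and 0.42 (SE 0.46), the latter 0.14 without DMSO 48 h replicate 2, and EPHA5 had 0.07 (SE 0.63) at 24 h.

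The 48 h values of several related genes rested on DMSO 48 h replicate 2. In that library EFNA2 stood at 3296 CPM, PDGFC at 1961 CPM, PDGFA at 529 CPM and NRP1 at 537 CPM. The log2 fold changes of EFNA2, PDGFC, PDGFA and NRP1 at 48 h were -1.94, -2.25, -1.53 and -0.47 with all libraries, and -0.24, 0.17, 0.13 and 0.54 without it. EPHA5 went from -0.67 to 0.40 and TIMP3, a metalloproteinase inhibitor, from -1.15 to -0.35. The response of VEGFA, EFNA1 and EFNA3 at 48 h did not rest on this library, at 0.84, 1.52 and 3.05 without it. PDGFRA, a receptor of PDGFB, had a 48 h log2 fold change of -3.24 (SE 1.55, edgeR adjusted p 0.381) from DMSO levels of at most 7.45 CPM. That value rests on the 7 counts of Molidustat 48 h replicate 1, without which the Molidustat libraries at 48 h have no count.

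**Figure D4:**
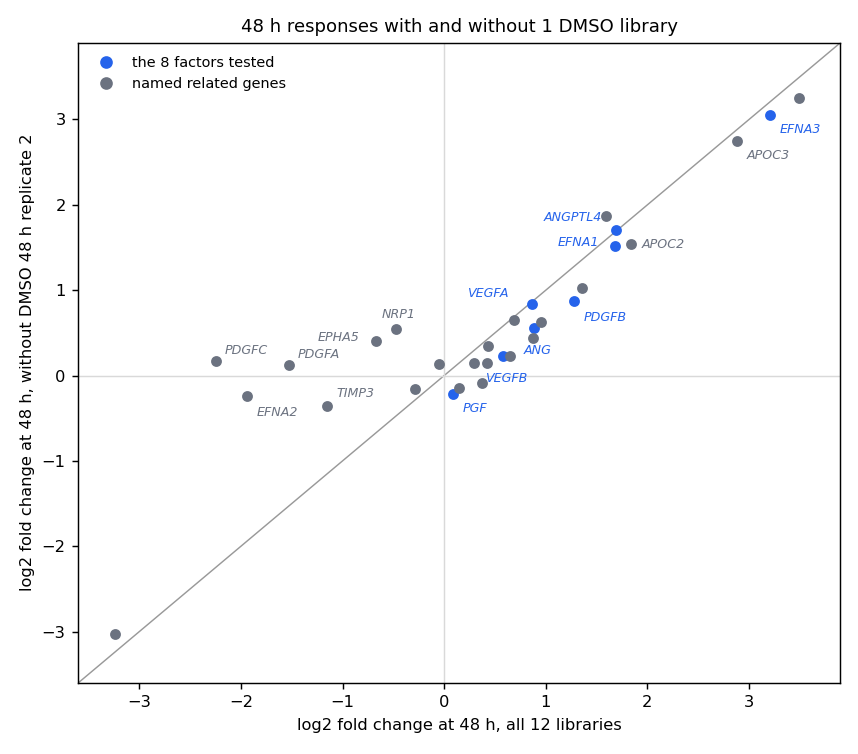
Log2 fold change at 48 h with all 12 libraries (horizontal) against the value without DMSO 48 h replicate 2 (vertical) for the 8 factors (blue) and the named related genes (grey), with the line of equality. EFNA3 (3.21 and 3.05), EFNA1 and VEGFA lie near the line, VEGFB, ANG, PDGFB and PGF lie below it (PGF at 0.09 and -0.22), and EFNA2, PDGFC and PDGFA moved from -1.94, -2.25 and -1.53 to -0.24, 0.17 and 0.13.

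The remaining lists held no call at either time. Of the partners of angiogenin, PLXNB2, a receptor reported for it, had log2 fold changes of 0.81 (SE 0.44) and 0.69 (SE 0.44), and RNH1, the ribonuclease inhibitor that binds it, -0.11 (SE 0.34) and 0.14 (SE 0.34), the latter -0.14 without DMSO 48 h replicate 2. Among inhibitors of angiogenesis, COL18A1, the precursor of endostatin, had 0.23 (SE 0.30) and 0.30 (SE 0.30), the latter 0.15 without DMSO 48 h replicate 2. Among other secreted factors, midkine (MDK) had -0.16 (SE 0.50) and 0.87 (SE 0.50), the latter 0.44 without DMSO 48 h replicate 2, endothelin (EDN1) had 0.54 (SE 1.08) and 1.36 (SE 1.13), and TYMP had 0.50 (SE 1.03) and 0.37 (SE 1.01), the latter -0.08 without that library.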

How the data were processed

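The authors sequenced 3′ libraries and, per the labels, aligned reads to GRCh38 with STAR 2.7.9a and counted them per gene with HTSeq 0.11.2. The deposited files hold raw read counts for each gene. The annotation release, strand setting and use of molecular identifiers are not given in the sources used here, so counts may hold PCR copies, the limit of 3 counts covers counting error only, and antisense or overlapping genes are uncertain. Lines naming no gene (5 per library) were left out, and all per-sample columns were used (0 left out). Gene names and positions came from GENCODE release 44 (60437 of 60666 identifiers matched).

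Genes passing edgeR's filter (minimum count 10, minimum total 15) were tested in 1 fit of all 12 libraries with edgeR 4.0.16 (R 4.3.3), TMM factors and Benjamini-Hochberg adjustment. Molidustat was compared with DMSO at 24 h, at 48 h and averaged over both, 48 h with 24 h within each treatment, and the responses with each other. Standard errors and intervals, derived from the F statistic, include the spread between libraries. Alternatives were DESeq2 1.42.0, limma-voom 3.58.1 with sample quality weights, RLE factors, total counts, other filters, fits of only the groups compared, the replicate number as a block and each library left out. The factors and gene lists were chosen with earlier results of these data known. All 9 factors are named. A related gene is named if called at either time, among the 2 most abundant of its list, or having its largest mean absolute log2 fold change, and of the HIF targets those called, the largest and the smallest. The 3 genes nearest to VEGFA were ranked by the root mean square difference of centred log2 CPM (prior count 2). A few genes that meet these rules are left unreported. The promoter motif search read RefSeq windows. The fits were also run on counts simulated around a common mean per gene with planted changes. That checks the code and does not measure the error rate in these data. Figures were drawn with matplotlib 3.10.9 in Python 3.11.15.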

Additional observations from a re-analysis of the deposited data

How the results depend on the processing

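The number of factors called depended on the test. At 24 h it was 0 with edgeR, 2 with DESeq2 (EFNA3 and VEGFA) and 0 under the other alternatives. At 48 h it was 0 with edgeR, and 2 (EFNA1 and EFNA3) with DESeq2, with limma-voom with quality weights and with no filter on low counts. Leaving out 1 library gave 0 to 1 factors at 48 h, the 1 being EFNA1 without DMSO 48 h replicate 1. For the averaged response the number was 2, 1 (EFNA1) with at least 10 counts in every library, where EFNA3 was not tested, and 0 to 3 with 1 library left out, 0 without Molidustat 48 h replicate 3 and 3 (with VEGFA) without Molidustat 48 h replicate 2. With no threshold on the fold change it was also 3. The cause was not tested. No factor was called for the difference of the responses or for time under any alternative run.

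Of the related genes, 1 was called at 48 h with edgeR, 3 with DESeq2 and 3 with limma-voom (APOC3 and APOC2 among them), 6 with no filter on low counts (EFNA2, PDGFA and PDGFC lower), 0 with at least 10 counts in every library, 0 with only the groups compared, and 0 to 2 with 1 library left out, 0 without Molidustat 48 h replicate 2 or 3 and 2 (with PDGFC, lower) without DMSO 48 h replicate 1. Averaged over both times the number was 1 (APOC3), 2 with DESeq2, 3 with limma-voom, 3 with no filter on low counts and 0 with at least 10 counts in every library.

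Over all genes, 33 and 30 were called higher and 0 and 3 lower at 24 h and 48 h. With DESeq2 these were 133 and 174 higher and 12 and 176 lower, with limma-voom 64 and 244 higher and 0 and 34 lower, and with no filter 104 and 154 higher and 2 and 610 lower. With each library left out in turn they ran from 20 to 111 and from 13 to 55 higher, and from 0 to 5 and from 0 to 272 lower. Without DMSO 48 h replicate 2 they were 111 and 48 higher and 5 and 5 lower. The 48 h number lower was 272 without DMSO 48 h replicate 1 and 152 without DMSO 48 h replicate 3, and the cause was not tested. Scaling by total counts moved the median log2 fold change of all genes to 0.133 at 48 h.

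Deviations of same-numbered libraries correlated at -0.0902 to 0.139 over 18 pairs, 3 of them above 0.1. Such weak correlations cannot settle whether same-numbered libraries were prepared together, and the main fit did not pair them. With the replicate block, 0 factors were called at 24 h and at 48 h and 2 for the average, and 30 and 22 genes were called higher. It turned the difference of the responses of ANGPTL4 to -0.068 and the 24 h value of PDGFRA to -0.69.

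The signs of some uncalled values also turned. With limma-voom these were, at 48 h, PGF (-0.12), NRP1 (0.43), NRP2 (-0.20), ANGPT1 (0.020), EFNA4 (0.085), EPHA5 (0.63), PDGFC (0.016), PDGFA (0.063), RNH1 (-0.069) and TYMP (-0.088), and for the difference of the responses ANGPTL4 (-0.73) and EFNA3 (-0.079). Total counts turned the VEGFA difference of the responses (0.064) and EFNA4 at 48 h (0.17), which was 0.00609 with at least 10 counts in every library. With each library left out in turn, the difference of the responses ran from -0.26 to 0.025 for VEGFA, -1.41 to 0.82 for ANGPTL4 and -0.58 to 0.92 for EFNA3. The 48 h values ran from -0.22 to 0.29 for PGF, -0.81 to 0.54 for NRP1, -0.76 to 0.91 for NRP2, -0.46 to 0.44 for EFNA4, -1.12 to 0.40 for EPHA5, -2.70 to 0.17 for PDGFC, -1.97 to 0.13 for PDGFA, -0.14 to 0.34 for RNH1 and -0.085 to 1.03 for TYMP. At 24 h they ran from -0.14 to 0.33 for EPHA5, -2.05 to 1.64 for PDGFRA, -1.27 to 5.06 for APOA5, -0.40 to 0.19 for MDK and -0.013 to 1.64 for EDN1. Depth limits EFNA3, PDGFB and ANGPTL4, of which no DMSO library held more than 47 counts, and VEGFB, which had 33 counts or fewer in 5 of 6 DMSO libraries.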
